A study of Mus musculus with 14 samples.

Results

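Antioxidant and NRF2 target genes were followed in left ventricular RNA of WT and HCN4F mice after Sham surgery or transverse aortic constriction (TAC). The set holds 38 of the 49315 genes in the count table and was put together by gene function, with no threshold on measured values. Earlier results of these data were known when it was chosen. It covers the transcription factor NRF2 (gene Nfe2l2) and its inhibitor Keap1, quinone and heme detoxification, glutathione synthesis, the thioredoxin system, peroxiredoxins, superoxide dismutases and catalase, glutathione peroxidases, glutathione transferases, enzymes that supply NADPH, and ferritin. All 38 were found in the table by symbol, each as a single gene. Of these, 37 had enough counts for a test. The exception was Slc7a11, the cystine importer, with 0 to 3 counts in each library.

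RNA was sequenced in 14 libraries, namely WT-Sham (n = 4), WT-TAC (n = 2), HCN4F-Sham (n = 4) and HCN4F-TAC (n = 4). The mice were male, were operated at 10 to 12 weeks of age and were analysed 5 weeks later. TAC narrows the aorta and loads the left ventricle with pressure, whereas Sham surgery leaves the aorta open. HCN4F mice carry the gain-of-function allele Y527F of the pacemaker channel gene Hcn4 as a knock-in in every cell, made by changing exon 4, and WT mice carry none. The strain background is not given in the sources used here. Gene counts cannot show a single amino acid change, so the genotype of a library rests on its label.

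NRF2 is held in the cytosol and marked for degradation by KEAP1 until electrophiles or oxidants modify KEAP1. NRF2 then enters the nucleus, pairs with small MAF proteins and binds the antioxidant response element of genes for detoxification, glutathione and thioredoxin turnover, NADPH and iron storage. In the heart, whose mitochondria are a constant source of superoxide, superoxide dismutases turn superoxide into hydrogen peroxide. Catalase splits the peroxide into water and oxygen, while peroxiredoxins and glutathione peroxidases reduce it through thioredoxin and glutathione, with NADPH as the final reductant. NRF2 itself is controlled mostly at the protein level, which RNA does not show.

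The antioxidant response element core was looked for near the start sites of the set, because it is the sequence by which NRF2 reaches its targets. The letters searched were TGACNNNGC and TGAGNNNGC on both strands, in RefSeq windows on GRCm38.p6 from 250 bases before to 50 bases after a start site. Such a window was at hand for 31 of the 38 genes, and 13 of them (41.9%) held a match in any window. Among all 27025 genes with a window, 30.8% did. The match can contain TGAGTCA or TGACTCA, the heptamer of AP-1 factors. Matches of this kind were in 4 of the 31 genes (12.9%; Srxn1, Prdx1, Gstp1 and Me1) and in 0.929% of all genes with a window. Hmox1, Gclc, Gsr, Prdx6, Sod3, Gsta4 and Nnt had no window. Keap1, Nqo1, Prdx5, Gpx3, Gstm1, Gstm2, Ftl1 and Fth1 had windows without a match, which says only that these letters are not in those windows. The windows of 4 genes that recur below are printed 5′ to 3′ along the gene, with matches in capitals. Gstp1 and Gstm1 fell after TAC in both genotypes, the former with matches and the latter with none, Sod1 fell in HCN4F and holds a match, and Srxn1 holds the most matches of the set.
Gstp1, chr19:4037863-4038162, minus strand: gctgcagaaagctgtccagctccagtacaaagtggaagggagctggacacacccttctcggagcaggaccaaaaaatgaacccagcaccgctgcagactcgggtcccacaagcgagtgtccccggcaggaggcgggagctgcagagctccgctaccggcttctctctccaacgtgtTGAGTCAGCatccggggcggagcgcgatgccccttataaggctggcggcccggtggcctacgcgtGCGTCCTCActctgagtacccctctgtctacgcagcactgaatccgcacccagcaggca
Sod1, chr16:90220512-90220811, plus strand: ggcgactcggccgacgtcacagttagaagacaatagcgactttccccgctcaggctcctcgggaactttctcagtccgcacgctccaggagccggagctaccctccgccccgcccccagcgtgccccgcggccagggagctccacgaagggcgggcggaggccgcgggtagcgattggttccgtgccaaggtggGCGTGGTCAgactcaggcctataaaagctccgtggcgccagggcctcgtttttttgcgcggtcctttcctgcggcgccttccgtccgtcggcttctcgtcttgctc
Gstm1, chr3:108017924-108018223, minus strand: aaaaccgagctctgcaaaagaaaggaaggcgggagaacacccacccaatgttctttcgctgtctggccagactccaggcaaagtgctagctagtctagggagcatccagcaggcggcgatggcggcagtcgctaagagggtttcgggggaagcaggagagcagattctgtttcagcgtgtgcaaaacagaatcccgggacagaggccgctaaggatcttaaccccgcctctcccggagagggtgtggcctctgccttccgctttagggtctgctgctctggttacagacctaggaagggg
Srxn1, chr2:152105274-152105573, plus strand: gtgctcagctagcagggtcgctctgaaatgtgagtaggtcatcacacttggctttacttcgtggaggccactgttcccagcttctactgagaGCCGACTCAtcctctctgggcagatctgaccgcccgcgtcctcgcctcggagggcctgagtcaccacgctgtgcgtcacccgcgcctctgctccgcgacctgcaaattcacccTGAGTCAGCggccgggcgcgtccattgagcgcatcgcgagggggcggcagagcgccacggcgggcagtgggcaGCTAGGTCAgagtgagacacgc
In Gstp1 the matches began at base -74 and, on the other strand, at base -9 from the start site. The first of them, TGAGTCAGC, holds the AP-1 heptamer. In Srxn1 they began at bases -158, -45 and 29, and the one at -45 has the same 9 letters as that of Gstp1. The single match of Sod1 began at base -56. These matches describe sequence and were not tested as binding sites.

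Values are given as CPM, a gene's counts relative to the library's total, scaled between libraries with TMM factors. Each library held 22309914 to 35210939 counts (median 27676181.5), and 3 counts, the limit below which a gene was taken as not detected, correspond to 0.0859 to 0.137 CPM. Levels of different genes are compared only per kilobase of mRNA. In WT-Sham hearts the set ranged from 849 CPM per kilobase for Fth1, the heavy chain of ferritin, to 2.08 for G6pdx, the entry enzyme of the pentose phosphate pathway, with Slc7a11 at 0.0029. Next to Fth1 stood Gpx4 at 420, which reduces lipid peroxides, Prdx5 at 361, Sod1 at 307, the mitochondrial NADPH source Nnt at 234, and Ftl1, the light chain of ferritin, at 229. Nfe2l2 and Keap1 were similar at 20.4 and 16.9. The classical inducible targets were low, with Nqo1 at 18.2, Srxn1 at 5.75, Hmox1 at 3.68, Gclm at 3.00 and Gclc at 2.83 CPM per kilobase.

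Myl2, the ventricular light chain, stood at 5040 to 7530 CPM in all libraries, as the left ventricular label states. The atrial light chain Myl7 was at or below 0.694 CPM in 13 libraries. In HCN4F-TAC replicate 2 it was at 9.91 CPM, with Myl4 at 17.4 and Sln at 3.79 CPM, and mitochondrial genes took 13.9% of the counts there against 16.8% to 23.1% elsewhere. The summed level of 6 cardiomyocyte genes was 64710 to 67080 CPM in WT-Sham, 59860 and 60010 in WT-TAC, 56880 to 60290 in HCN4F-Sham and 47970 to 54100 in HCN4F-TAC. The summed level of 6 fibroblast genes was 665 to 680 CPM in WT-Sham, 595 and 699 in WT-TAC, 640 to 815 in HCN4F-Sham and 765 to 1194 in HCN4F-TAC. In RNA of whole tissue, fewer cells of a type and less RNA per cell cannot be told apart. Adipocyte genes stayed below 1 CPM in sum (0 to 0.904). The study describes the libraries of a group as biological replicates.

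**Figure D1:**
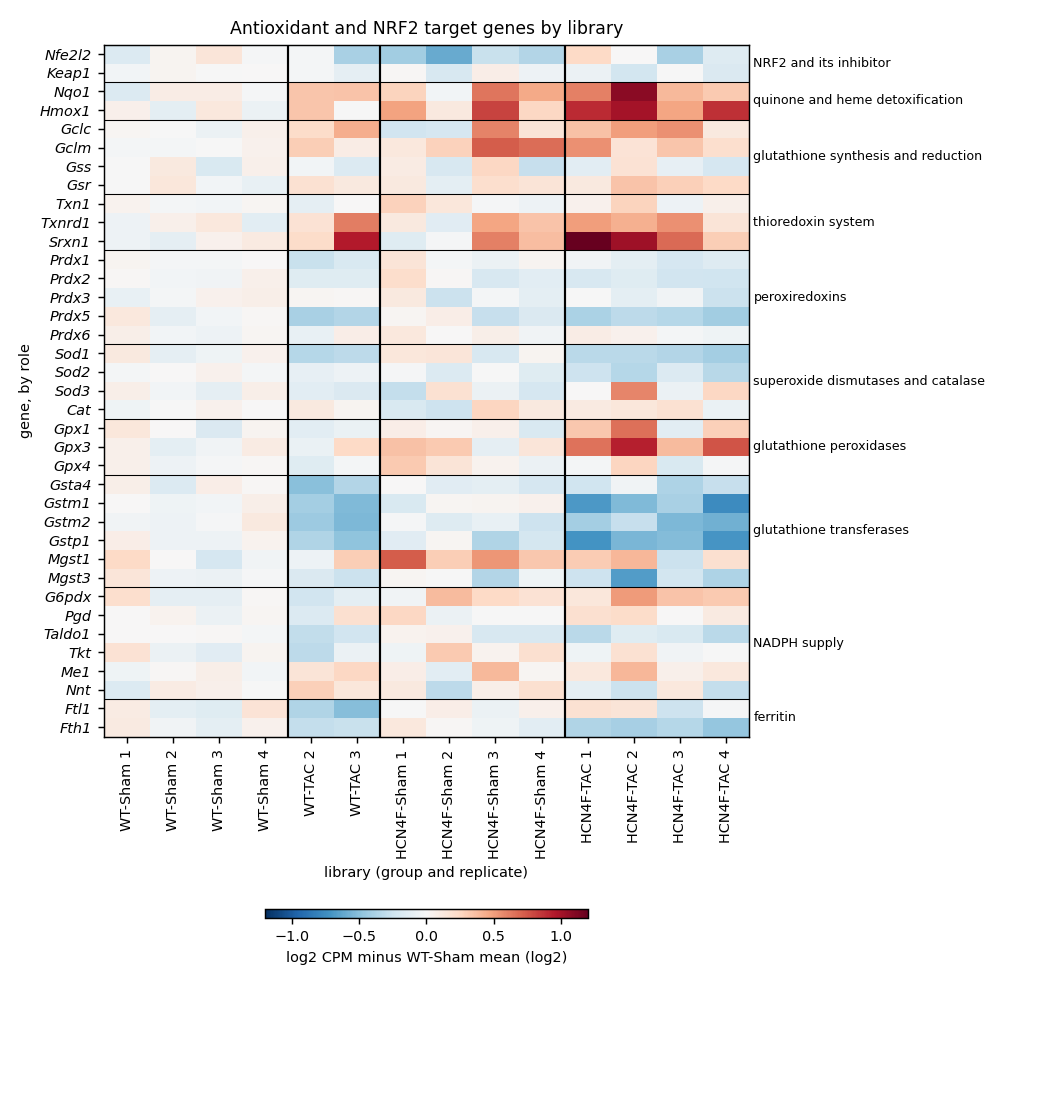
Heat map of the 37 tested genes (rows, ordered by role) in the 14 libraries (columns, by group and replicate), coloured by log2 CPM minus the mean log2 CPM of the WT-Sham libraries. Blue in both TAC groups marks Prdx5, Sod1, Gstm1, Gstm2, Gstp1 and Fth1, and red in all 4 HCN4F-TAC libraries marks Gpx3, Hmox1, Srxn1, Nqo1 and Txnrd1, among others.

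The first comparison asked what TAC changed in WT hearts. Of the 6 glutathione transferases, which join glutathione to electrophiles, 4 passed as lower after TAC and 0 as higher. These were Gstm1, Gstm2, Gstp1 and Gsta4, at 0.711-fold to 0.744-fold of their Sham levels. Prdx5, a peroxiredoxin of mitochondria and peroxisomes, and Ftl1 also fell, and 0 genes of the set passed as higher. In all, 6 of 37 genes passed at an adjusted p under 0.05 (quasi-likelihood test of edgeR, with p adjusted by Benjamini-Hochberg over 15292 genes). Of all genes tested, 1.62% were lower and 2.92% were higher by the same rule. With edgeR on the WT libraries alone, 14 passed, where 1276 of the 14752 genes in that fit were higher and 733 lower. Of the 14, Nqo1, Gclc, Txnrd1 and Srxn1 were higher, and Prdx1, Sod1, Taldo1, Fth1 and the 6 genes above were lower. The median log2 fold change was -0.09 over the set and -0.02 over all genes.

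Gstm2 showed the smallest adjusted p in WT. Its levels were 83.5, 82.3, 85.3 and 93.2 CPM in the WT-Sham libraries and 63.4 and 59.0 in the WT-TAC libraries, without overlap. The log2 fold change was -0.49 ± 0.10 (SE; adjusted p = 0.0134, edgeR). Gstm1, a neighbour on chromosome 3 (108012255 to 108017973, GRCm38, minus strand), went from 151, 145, 147 and 158 CPM to 113 and 104 CPM. Its log2 fold change was -0.47 ± 0.10 (adjusted p = 0.0238, edgeR). Both WT-TAC libraries lay well under all WT-Sham libraries for this pair. The Gstm genes are similar in sequence, and how reads shared between them were assigned is not given in the sources used here.

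Gstp1, on chromosome 19 (4035407 to 4037985), was at 102, 92.5, 92.8 and 99.5 CPM after Sham and at 75.3 and 69.0 CPM after TAC. Its log2 fold change was -0.43 ± 0.10 (adjusted p = 0.0308, edgeR). Gsta4, which acts on the lipid aldehyde 4-hydroxynonenal, went from 63.0, 53.5, 63.1 and 60.5 CPM to 42.2 and 47.0 CPM. It differed by -0.43 ± 0.10 on the log2 scale (adjusted p = 0.0298, edgeR). The remaining transferases were the microsomal Mgst1 at 0.12 ± 0.17 and Mgst3 at -0.22 ± 0.12, which did not pass (adjusted p = 0.72 and 0.304, edgeR).

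Prdx5 levels in WT were 498, 423, 444 and 460 CPM after Sham and 347 and 357 CPM after TAC. The groups did not overlap, and the log2 fold change was -0.37 ± 0.10 (adjusted p = 0.0436, edgeR). Prdx5 shares exonic bases with Trmt112 on the other strand, and whether counting used strand is not given. The other 4 peroxiredoxins lay between -0.23 (Prdx1) and 0.02 (Prdx3) and did not pass. Ftl1 levels were 237, 203, 199 and 248 CPM after Sham and 172 and 155 CPM after TAC. Its log2 fold change was -0.44 ± 0.12 (adjusted p = 0.0477, edgeR), the value closest to the threshold. Ferritin genes have many processed pseudogenes that can share reads with them.

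Sod1, the cytosolic superoxide dismutase, and Fth1 pointed down in WT but did not pass in edgeR. Sod1 was at 213, 182, 189 and 203 CPM after Sham and at 155 and 158 CPM after TAC (-0.33 ± 0.10, adjusted p = 0.063, edgeR). Fth1 was at 1360, 1230, 1170 and 1310 CPM after Sham and at 1040 and 1050 CPM after TAC (-0.28 ± 0.09, adjusted p = 0.076, edgeR). Neither gene's groups overlapped, a pattern shared with genes of the set far from passing. DESeq2 called both Sod1 and Fth1, with adjusted p = 0.0223 and 0.0206.

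Nfe2l2, Keap1 and the inducible targets Nqo1, Hmox1, Gclc, Gclm, Txnrd1 and Srxn1 did not pass in WT with all groups in the fit. On the WT libraries alone edgeR called Nqo1 (0.35, adjusted p = 0.0216), Gclc (0.345, adjusted p = 0.0436), Txnrd1 (0.43, adjusted p = 0.0441) and Srxn1 (0.65, adjusted p = 0.0493). Nfe2l2 was at 44.9, 51.5, 55.9 and 50 CPM after Sham and at 49.5 and 38.6 CPM after TAC, so that the groups overlapped (log2 fold change -0.20 ± 0.15). Keap1 was flat within its spread, at 59.8 to 62.3 CPM after Sham and 60 and 56.5 CPM after TAC. Nqo1, a quinone reductase, was at 25.3, 30.1, 30.0 and 27.9 CPM after Sham and at 35.5 and 35.8 CPM after TAC. These groups did not overlap, but its log2 fold change of 0.33 ± 0.19 did not pass (adjusted p = 0.331, edgeR). Hmox1, which degrades heme, was at 5.30 to 6.27 CPM after Sham and 7.23 and 5.75 CPM after TAC. The largest positive value of the set was that of Srxn1, which repairs overoxidised peroxiredoxins, at 0.63 ± 0.28 (adjusted p = 0.2, edgeR). WT-TAC replicate 3 held 31.1 CPM and replicate 2 held 18.8, next to 15 to 17.4 CPM after Sham, so that the size of the value came mostly from 1 library.

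The WT result carried little replication. Without either WT-TAC library, 0 of the 6 calls passed, and without a WT-Sham library 1 to 4 did. Without an HCN4F library, which bears on the WT comparison through the shared estimate of the spread, 4 to 8 genes of the set passed. Counts over all genes also changed with the library left out, as given in the last section. They were 163 of 15205 without WT-Sham replicate 1 and 544 of 15307 without WT-Sham replicate 3. With the lone WT-TAC library left, its spread was assumed to be that of the other groups.

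**Figure D2:**
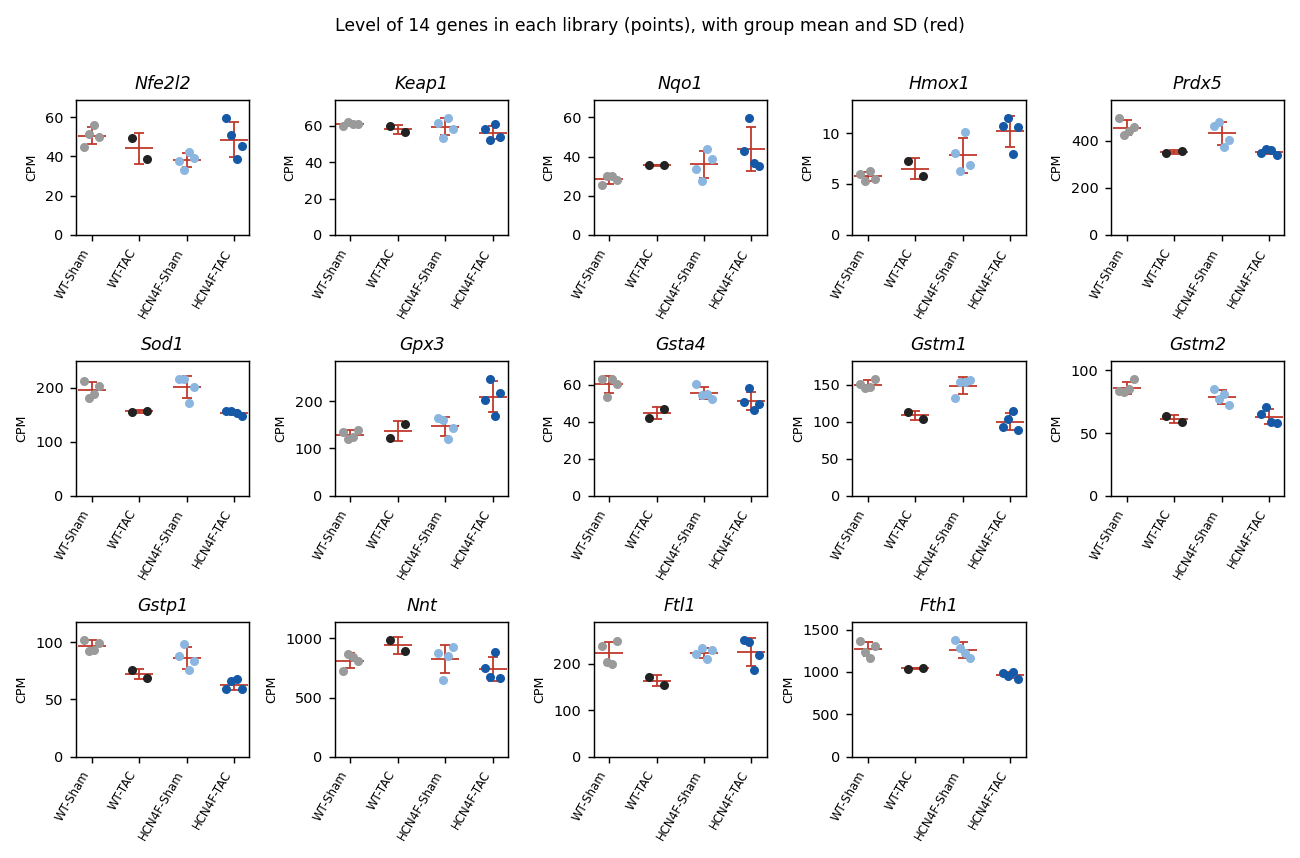
CPM (vertical axes, from 0) of 14 genes in each library, grouped by genotype and surgery, with the group mean and SD in red. The WT-TAC libraries (n = 2) and the HCN4F-TAC libraries (n = 4) lie under their Sham groups for Prdx5, Gstm1, Gstm2, Gstp1, Sod1 and Fth1, and the WT-TAC libraries lie under WT-Sham for Ftl1, at 172 and 155 CPM.

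The second comparison asked what TAC changed in HCN4F hearts. Here 7 of 37 genes passed, 6 lower and 1 higher, where 6.41% of all tested genes were lower and 7.20% were higher. The lower genes were the transferases Gstm1, Gstm2 and Gstp1, Prdx5, Sod1 and Fth1. The gene that rose was Gpx3, the secreted glutathione peroxidase of plasma. The median log2 fold change was -0.04 over the set and -0.01 over all genes.

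Gstm1 changed the most among the genes that passed. It stood at 132, 153, 154 and 156 CPM in HCN4F-Sham and at 92.9, 104, 115 and 88.9 CPM in HCN4F-TAC, a log2 fold change of -0.57 ± 0.08 (adjusted p = 0.000391, edgeR). Gstp1 was at 87.9, 97.9, 75.3 and 83.3 CPM after Sham and at 58.8, 66.1, 67.5 and 59.2 CPM after TAC. Its log2 fold change was -0.45 ± 0.08 (adjusted p = 0.00184, edgeR). For both genes every TAC library lay under every Sham library. Gstm2 was at 85.3, 77.0, 80.7 and 72.3 CPM after Sham and at 65.0, 70.8, 59.0 and 57.8 CPM after TAC, a log2 fold change of -0.32 ± 0.08 (adjusted p = 0.0121, edgeR). Gsta4, which fell in WT, was at 52.1 to 60.2 CPM after Sham and 46.4 to 58.1 CPM after TAC in HCN4F, with a log2 fold change of -0.12 ± 0.08 (adjusted p = 0.369, edgeR). The genotypes' responses of Gsta4 differed by 0.31 ± 0.13, which did not pass (adjusted p = 0.491, edgeR).

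Sod1, on chromosome 16 (90220754 to 90226329), was at 216, 217, 172 and 201 CPM after Sham and at 157, 157, 154 and 148 CPM after TAC. The log2 fold change was -0.39 ± 0.08 (adjusted p = 0.0038, edgeR). The mitochondrial Sod2 pointed the same way at -0.19 ± 0.065 but did not pass (adjusted p = 0.0614, edgeR), although DESeq2 called it (adjusted p = 0.0198). The extracellular Sod3 was at 0.30 ± 0.13. Prdx5 was at 463, 482, 376 and 405 CPM after Sham and at 349, 367, 360 and 341 CPM after TAC, or -0.28 ± 0.08 (adjusted p = 0.0259, edgeR). It no longer passed without HCN4F-Sham replicate 1 or 2 or HCN4F-TAC replicate 1 or 4 (adjusted p from 0.0586 to 0.0728, edgeR), or on the HCN4F libraries alone (adjusted p = 0.0758, edgeR). The TAC libraries of both genes were close together, and the Sham libraries were spread more widely above them.

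Fth1, the most abundant of the set per length, was at 1380, 1280, 1220 and 1160 CPM after Sham and at 985, 957, 996 and 918 CPM after TAC. Its log2 fold change was -0.385 ± 0.07 (adjusted p = 0.00201, edgeR). Ftl1, its partner chain, was at 220, 233, 210 and 230 CPM after Sham and at 251, 246, 186 and 219 CPM after TAC, a log2 fold change of 0.015 ± 0.097. With all groups in the fit, edgeR called Ftl1 in WT and Fth1 in HCN4F. Fth1 pointed down in WT as well, where DESeq2 (adjusted p = 0.0206) and edgeR on the WT libraries alone (adjusted p = 0.0327) called it. The difference between the genotypes' responses did not pass for either (0.45 ± 0.15 for Ftl1 and -0.10 ± 0.11 for Fth1; adjusted p = 0.455 and 0.814, edgeR).

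Gpx3 was at 165, 160, 120 and 143 CPM after Sham and at 203, 247, 168 and 217 CPM after TAC. The lowest TAC library, replicate 3, lay just above the highest Sham library. The log2 fold change was 0.51 ± 0.12 (adjusted p = 0.00893, edgeR). Gpx3 was highest in HCN4F-TAC replicate 2, the library with atrial transcripts, and without it the value was 0.415 (adjusted p = 0.0372, edgeR). Of the 6 fibroblast genes 3 rose and 0 fell after TAC in HCN4F, and of the 6 cardiomyocyte genes 4 fell and 1 rose. In WT 1 fibroblast gene and 2 cardiomyocyte genes fell and 0 rose. The atrial, endothelial, macrophage, smooth muscle and pericyte, and erythroid lists had 0 genes passing after TAC in either genotype (edgeR). The adipocyte gene Cfd was lower and the lymphocyte gene Cd79a higher in HCN4F, both at low levels. The part of these shifts in the results on Gpx3 and on the genes that fell was not tested. Gpx1, the main cytosolic glutathione peroxidase, was at 0.315 ± 0.12 and did not pass (adjusted p = 0.105, edgeR).

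Nfe2l2 in HCN4F was at 37.8, 33.2, 42.0 and 39.4 CPM after Sham and at 59.6, 50.7, 38.5 and 45.2 CPM after TAC. The groups overlapped through HCN4F-TAC replicate 3, and the log2 fold change of 0.35 ± 0.12 did not pass (adjusted p = 0.0687, edgeR). Hmox1 was at 8.02, 6.25, 10.1 and 6.85 CPM after Sham and at 10.7, 11.5, 7.98 and 10.6 CPM after TAC, or 0.38 ± 0.15 (adjusted p = 0.0938, edgeR). DESeq2 called Nfe2l2 (0.35, adjusted p = 0.0474) and Srxn1 (0.67, adjusted p = 0.0149). Without HCN4F-TAC replicate 3, 13 genes of the set passed in edgeR (5 higher and 8 lower), where 1258 of 15300 genes were higher and 1136 lower. The 13 included Nfe2l2 at 0.44 (adjusted p = 0.0135, edgeR) and Hmox1 at 0.48 (adjusted p = 0.0292, edgeR). Without HCN4F-Sham replicate 3, 12 passed, where 1015 of 15300 genes were higher and 1094 lower, with Hmox1, Gclc and Srxn1 among those that were higher and Nfe2l2 not among them. Keap1 was at 53.5 to 64.4 CPM after Sham and 52.3 to 60.8 CPM after TAC. Nqo1 was at 33.9, 27.7, 44.0 and 38.6 CPM after Sham and at 43.0, 59.8, 36.9 and 35.2 CPM after TAC, or 0.28 ± 0.16, and the value was 0.085 without HCN4F-TAC replicate 2. Srxn1 again had the largest positive value, 0.66 ± 0.23, with HCN4F-TAC libraries from 19.8 to 41.9 CPM (adjusted p = 0.0763, edgeR).

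Glutathione synthesis showed 0 of 4 tested genes passing in either genotype. In WT its values ran from -0.11 for Gss to 0.33 for Gclc, the catalytic subunit of the rate-limiting ligase, and in HCN4F from -0.16 for Gclm, the modifier subunit, to 0.27 for Gclc. Of all genes, 2.92% were higher and 1.62% lower in WT, and 7.20% were higher and 6.41% lower in HCN4F. NADPH supply likewise had 0 of 6 passing, and at these shares 0 of so few genes says little about either role. Taldo1, of the pentose phosphate pathway, was lowest in WT at -0.26 ± 0.09 (adjusted p = 0.0998, edgeR, and 0.0249 on the WT libraries alone) and in HCN4F at -0.175 ± 0.07 (adjusted p = 0.123, edgeR). Txn1, the cytosolic thioredoxin, was at -0.05 and 0.00 in WT and HCN4F, and catalase at 0.08 and 0.09.

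Nnt, the proton-driven transhydrogenase that makes NADPH in mitochondria, is known to be disrupted in one widely used C57BL/6 substrain. Its counts showed no library without it. Levels were 724, 868, 844 and 809 CPM in WT-Sham and 988 and 891 CPM in WT-TAC. In HCN4F they were 877, 650, 852 and 924 CPM after Sham and 750, 676, 885 and 663 CPM after TAC. The log2 fold change after TAC was 0.21 ± 0.13 in WT and -0.15 ± 0.11 in HCN4F, with groups that did not overlap in WT and did in HCN4F. Neither passed, and their difference of -0.36 ± 0.17 did not pass (adjusted p = 0.537, edgeR). A gene count does not show which exons the reads came from, and a second gene model of the same name overlaps Nnt in the annotation.

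**Figure D3:**
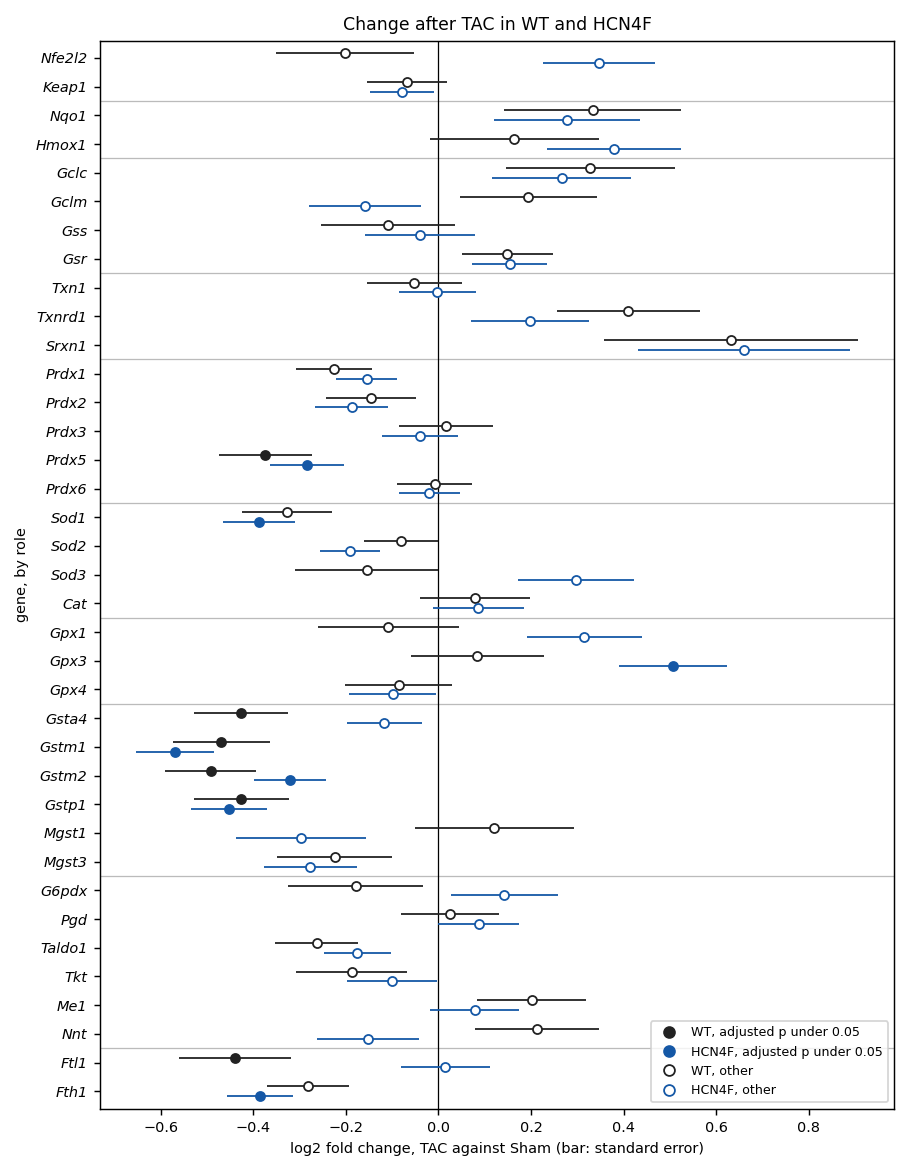
Log2 fold change after TAC (horizontal axis, with SE) for the 37 tested genes by role, in WT (black) and HCN4F (blue), with filled points for an adjusted p under 0.05. Gstm1, Gstm2, Gstp1 and Prdx5 are filled and below 0 in both genotypes, and Gpx3, at 0.51 in HCN4F, is the only filled point above 0.

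Of the 6 genes called in WT and the 7 called in HCN4F, 4 were shared, namely Gstm1, Gstm2, Gstp1 and Prdx5, all lower. They made up 66.7% of the WT calls and 57.1% of the HCN4F calls. Over all genes, 382 were called in both with the same direction, 55% of the WT calls and 18.4% of the HCN4F calls. The shared calls rest on the WT list, of which 0 passed without either WT-TAC library or with the trend on mRNA length removed. These comparisons have no library in common. Log2 fold changes stayed under 1 in size for every gene of the set in every comparison, so that none passed when a change of more than 1 was asked for as well.

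The genes that fell had short mRNAs, and the values of short and long genes differed after TAC across the whole table. The median mRNA of the set was 1612 bases and that of all tested genes 2879. Sod1 has 641 bases, Gstp1 821, Ftl1 968, Gsta4 977, Gstm2 1064, Prdx5 1262, Gstm1 1289 and Fth1 1494. In WT the median log2 fold change was -0.23 over the 1416 tested genes of under 1000 bases and 0.11 over the 4602 of over 4000 bases, and 4.73% of the short genes were called lower. In HCN4F these medians were -0.16 and 0.04, and 13.7% of the short genes were called lower. Across genes, which are not independent replicates, Spearman's rho between length and log2 fold change was 0.345 in WT and 0.167 in HCN4F (15262 genes). Library by library, the median log2 deviation of short genes minus that of long genes was 0.08 to 0.26 in WT-Sham, -0.22 and -0.16 in WT-TAC, -0.12 to 0.24 in HCN4F-Sham and -0.21 to -0.05 in HCN4F-TAC. The HCN4F-Sham libraries were split, with replicates 1 and 2 at 0.24 and 0.22 and replicates 3 and 4 at -0.12 and -0.02. Among the genes that fell in HCN4F, the lowest HCN4F-Sham library was replicate 3 for Sod1, Gstp1 and Prdx5, replicate 4 for Gstm2 and Fth1, and replicate 1 for Gstm1.

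The fit was repeated with the trend on length taken out of each library, an alternative added after the data were seen. In WT, 0 of 37 genes then passed, and 1.04% of all genes were higher and 0.413% lower. Gstm2 stood at -0.31 ± 0.09 (adjusted p = 0.0872, edgeR) and Gstm1 at -0.31 ± 0.11 (adjusted p = 0.166, edgeR). The other 4 calls stood at -0.22 for Gstp1, -0.24 for Gsta4, -0.21 for Prdx5 and -0.25 for Ftl1. Each WT call lay nearer 0 than with the trend left in. In HCN4F, 8 genes passed, 2 higher and 6 lower, with 7.54% of all genes higher and 5.88% lower. Gstm1 (-0.49 ± 0.09), Fth1 (-0.32 ± 0.06), Gstp1 (-0.31 ± 0.07), Sod1 (-0.23 ± 0.05), Prdx5 (-0.19 ± 0.06) and Gpx3 (0.56 ± 0.10) passed again. Sod2 (-0.23 ± 0.06) and Gpx1 (0.42 ± 0.11) joined them, and Gstm2 (-0.21) did not pass (adjusted p = 0.0671, edgeR). Sod2 is one of the longest of the set, with 5861 bases. Whether the trend on length arose in the tissue or in the handling of RNA was not tested.

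**Figure D4:**
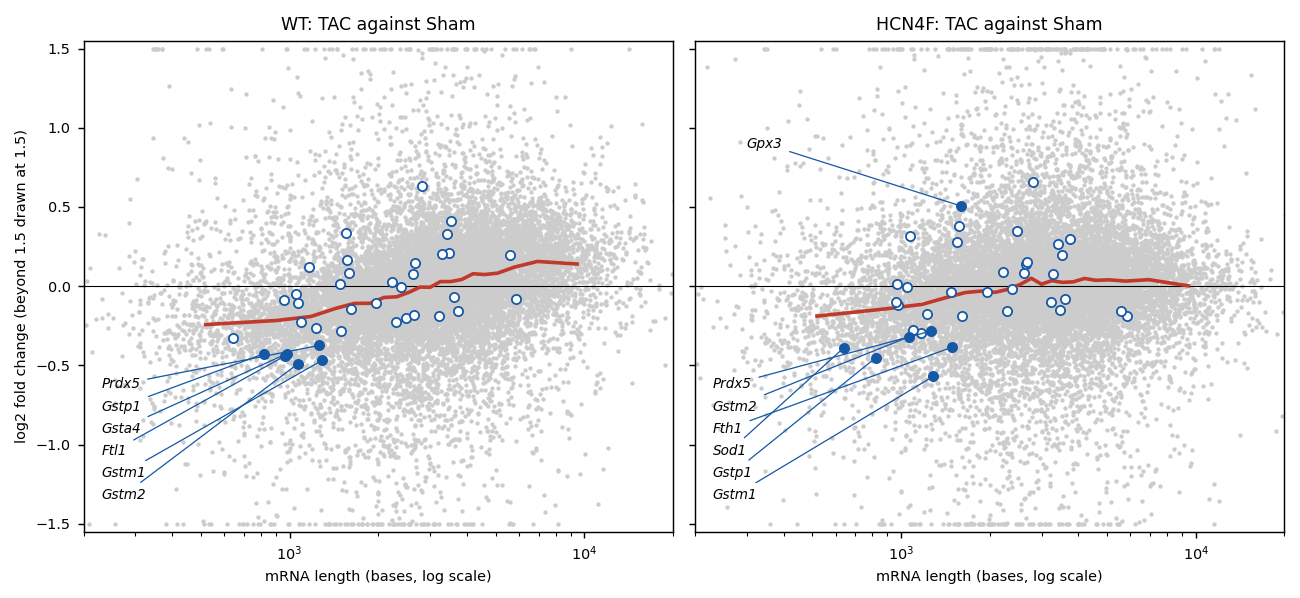
Log2 fold change after TAC (vertical axis, values beyond 1.5 drawn at 1.5) against mRNA length in bases (log scale) for all tested genes (grey), with the median in 20 bins of equal gene number (red) and the genes of the set (circles, filled and named where the adjusted p is under 0.05). The red line climbs with length in WT, from a median of -0.23 under 1000 bases to 0.11 over 4000 bases, and less so in HCN4F.

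The third comparison asked how HCN4F hearts differed from WT hearts after Sham surgery. None of the 37 genes passed (edgeR), as against 0.471% of all tested genes. At an unadjusted p under 0.05 there were 5 of the set, 4 higher and 1 lower, beside 15.2% of all genes, and DESeq2 on the same groups called Gclm alone (0.47, adjusted p = 0.0293). Gclm was at 16.4 to 17.3 CPM in WT-Sham and at 18.3, 20.2, 27.7 and 26.6 CPM in HCN4F-Sham, without overlap, a log2 fold change of 0.47 ± 0.12 (adjusted p = 0.0871, edgeR). Without HCN4F-Sham replicate 1 it was 0.57 (adjusted p = 0.0148, edgeR). Nfe2l2 was lower in each of the 4 HCN4F-Sham libraries (33.2 to 42.0 CPM) than in any WT-Sham library (44.9 to 55.9 CPM), at -0.41 ± 0.12 (adjusted p = 0.133, edgeR). Hmox1 and Nqo1, by contrast, had values above 0, of 0.44 ± 0.15 and 0.35 ± 0.16, with overlapping groups. Mgst1 was at 15.4 to 20.9 CPM in WT-Sham and 21.8 to 29.3 CPM in HCN4F-Sham (0.47 ± 0.14, adjusted p = 0.138, edgeR). Nnt differed by 0.03 ± 0.11 and Keap1 by -0.04 ± 0.07.

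The fourth comparison set HCN4F-TAC against WT-TAC, with 2 WT libraries. None of the 37 genes passed (edgeR), beside 0.111% of all tested genes. At an unadjusted p under 0.05 there were 8 of the set, 6 higher and 2 lower in HCN4F, beside 12.5% of all genes. DESeq2 called Gpx3 (0.60, adjusted p = 0.013) and Ftl1 (0.46, adjusted p = 0.0267). In edgeR Gpx3 was at 0.61 ± 0.15 (adjusted p = 0.109), with 122 and 152 CPM in WT-TAC under all HCN4F-TAC libraries. Ftl1 was at 0.465 ± 0.12 (adjusted p = 0.129, edgeR), with 172 and 155 CPM in WT-TAC and 186 to 251 CPM in HCN4F-TAC. Hmox1 was at 0.66 ± 0.18 (adjusted p = 0.162, edgeR), with 7.23 and 5.75 CPM in WT-TAC and 7.98 to 11.5 CPM in HCN4F-TAC. G6pdx was at 0.51 ± 0.15 (adjusted p = 0.17, edgeR). The groups did not overlap for any of these 4, nor for 7 further genes of the set, or 11 of 37. Of all tested genes, 22.2% had groups that did not overlap in this comparison. The summed fibroblast level was 595 and 699 CPM in WT-TAC and 765 to 1194 CPM in HCN4F-TAC, the macrophage sum was 123 and 126 CPM against 123 to 204 CPM, and the erythroid sum was 88.3 and 100 CPM against 98.9 to 365 CPM. Of the 6 fibroblast genes 0, and of every other marker list 0, passed between the genotypes (edgeR). With 0.111% of all genes passing, 0 of a short list says little about the sums. The part of cell-type levels in the values of Gpx3, Hmox1, Ftl1 and G6pdx was not tested. Without HCN4F-TAC replicate 3, Gpx3 (0.70), Hmox1 (0.76), Ftl1 (0.55) and Gpx1 (0.54) passed, with adjusted p from 0.0105 to 0.0269 (edgeR), where 454 of all genes passed. Without HCN4F-TAC replicate 1, 2 or 4, 0 genes of the set passed. Replicate 2, with atrial transcripts, was the highest HCN4F-TAC library for Gpx3 (247 CPM), Hmox1 (11.5), Gpx1 (67.6) and G6pdx (7.84), but not for Ftl1. Nnt was lower in HCN4F-TAC at -0.34 ± 0.13 and Sod2 at -0.19 ± 0.08, and neither passed (adjusted p = 0.311 and 0.34, edgeR). Of the transferases that fell after TAC in both genotypes, Gstm1 was at -0.12 ± 0.10, Gstm2 at 0.05 ± 0.10 and Gstp1 at -0.20 ± 0.10. None of them passed (adjusted p = 0.691, 0.892 and 0.432, edgeR), and the groups of Gstp1 did not overlap.

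**Figure D5:**
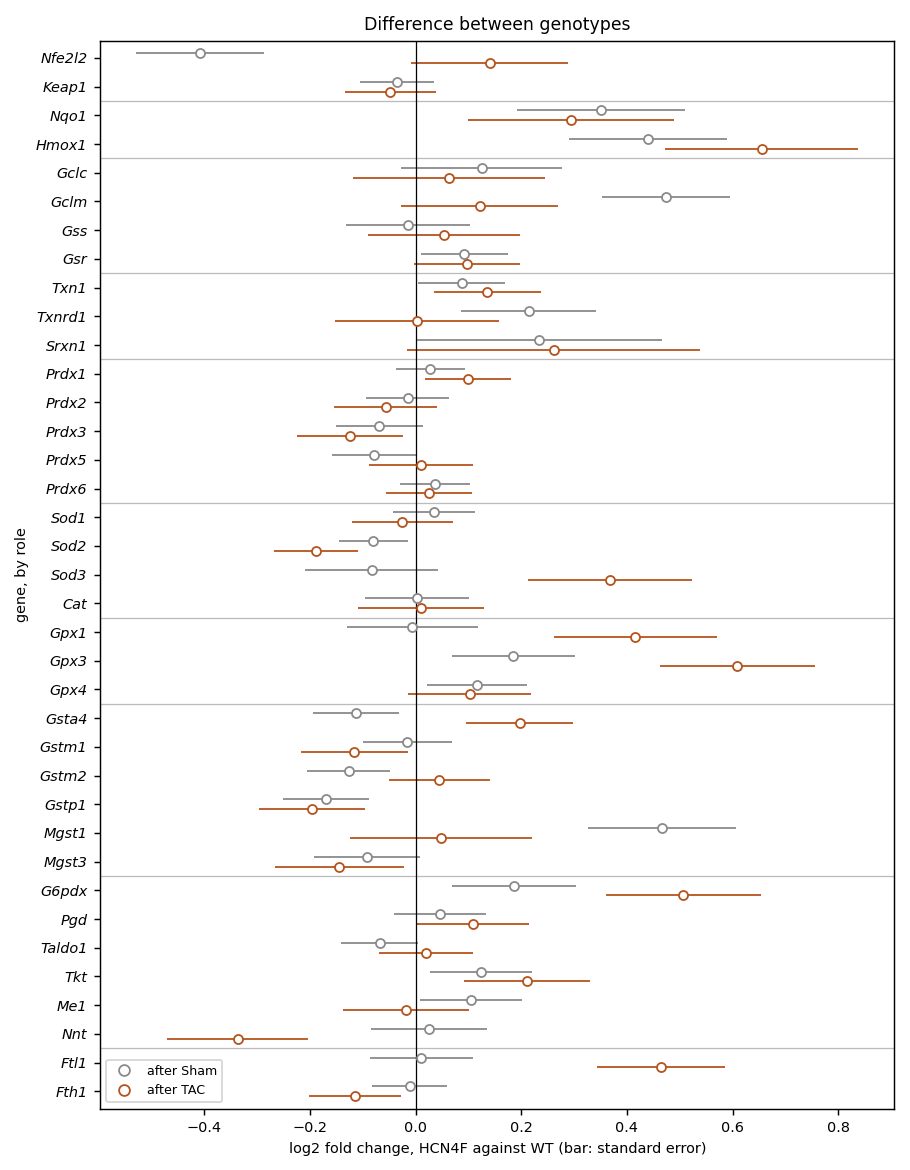
Log2 fold change of HCN4F against WT (horizontal axis, with SE) for the 37 tested genes by role, after Sham (grey) and after TAC (orange). All points are open because none had an adjusted p under 0.05, and the farthest from 0 are Hmox1 after TAC at 0.66 and Gpx3 after TAC at 0.61.

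The genotype by surgery interaction tested whether the response to TAC itself differed between HCN4F and WT. None of the 37 genes passed (edgeR), and the share of all 15292 genes that passed was 0%, with 1418 at an unadjusted p under 0.05 and 34 called by DESeq2. DESeq2 called 0 of the set as well, and 6 had an unadjusted p under 0.05 in edgeR, all with a more positive response in HCN4F. They were Nfe2l2 (0.55 ± 0.19), Ftl1 (0.45 ± 0.15), Sod3 (0.45 ± 0.20), Gpx1 (0.42 ± 0.20), Gpx3 (0.42 ± 0.19) and Gsta4 (0.31 ± 0.13). Their adjusted p lay between 0.455 and 0.534 (edgeR). For Nfe2l2 the group means were 50.6 ± 4.54 (SD, n = 4) in WT-Sham, 44.1 ± 7.73 (n = 2) in WT-TAC, 38.1 ± 3.72 (n = 4) in HCN4F-Sham and 48.5 ± 8.92 CPM (n = 4) in HCN4F-TAC. HCN4F-Sham had the lowest mean and its libraries overlapped those of both TAC groups but not those of WT-Sham.

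Beyond the set, 88 further genes of the same pathways were listed and 84 were tested. They too were chosen with earlier results of these data known, which limits what their shares below can show. In WT, 8 passed after TAC, 2 higher and 6 lower (9.52%), beside 2.92% of all genes higher and 1.62% lower. Higher were Mafk, a small MAF partner of NRF2 (0.34 ± 0.10), and Txnip, which binds and inhibits thioredoxin (0.68 ± 0.16). Lower were Aldh1l1, a folate enzyme that yields NADPH (-1.03 ± 0.22), the transferases Gstt1 (-0.81 ± 0.22), Gstk1 (-0.63 ± 0.13) and Gstm5 (-0.39 ± 0.10), the carbonyl reductase Cbr1 (-0.41 ± 0.09) and the methionine sulfoxide reductase Msrb2 (-0.40 ± 0.10). Their adjusted p ran from 0.0158 to 0.049 (edgeR). With the trend on length removed 1 gene passed, and without either WT-TAC library 0 did.

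In HCN4F, 30 of the 84 passed after TAC, 10 higher and 20 lower (35.7%), beside 7.20% of all genes higher and 6.41% lower. Among the 15 tested further glutathione enzymes 8 fell and 1 rose, with a median of -0.39. The largest falls were Gstt2 (-1.02 ± 0.30), Gsta3 (-0.94 ± 0.21), Gstt1 (-0.94 ± 0.18), Gstt3 (-0.67 ± 0.19) and Gstk1 (-0.645 ± 0.104), with adjusted p from 0.000802 to 0.0391 (edgeR). Gstt1 was at 7.72, 13.1, 13.2 and 10.6 CPM after Sham and at 5.14, 5.66, 7.49 and 4.92 CPM after TAC. Also lower were the iron exporter Slc40a1 (-0.72 ± 0.22), the xanthine oxidoreductase Xdh (-0.615 ± 0.143) and Aldh1l1 (-0.59 ± 0.17). The largest rise was that of Nox4, an NADPH oxidase that releases hydrogen peroxide, at 1.49 ± 0.31 (adjusted p = 0.00485, edgeR). Its levels were 0.565, 1.10, 0.759 and 0.966 CPM after Sham and 2.24, 3.72, 1.34 and 2.16 CPM after TAC. Nox4 was low in all libraries, and its HCN4F-TAC libraries all lay above its HCN4F-Sham libraries. In WT it pointed the same way at 0.90 ± 0.41 and did not pass (adjusted p = 0.21, edgeR). There it was at 0.29 to 0.85 CPM after Sham and at 1.27 and 1.03 CPM after TAC. Ncf4, a subunit of the phagocyte oxidase, was at 0.86 ± 0.28 (adjusted p = 0.048, edgeR). Of the 10 NRF2 partners, repressors and turnover genes, Mafk (0.47 ± 0.08) and Maff (0.58 ± 0.17) rose and Rbx1 (-0.22 ± 0.06) fell. Of the 16 further NRF2 targets, Abcc1 (0.35), Slc3a2 (0.32) and Ugdh (0.32) rose, and Cbr1 (-0.34) and Slc40a1 fell. The adjusted p of these genes ran from 0.00107 to 0.0411 (edgeR). Without HCN4F-TAC replicate 2 or without replicate 4 the count was 17 of 84, and with the trend on length removed it was 31.

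Between the genotypes, 1 of the 84 genes passed after Sham (1.19%), beside 0.471% of all genes. Txnip was at 318 to 499 CPM in WT-Sham and at 852, 605, 667 and 739 CPM in HCN4F-Sham, a log2 fold change of 0.73 ± 0.13 (adjusted p = 0.0251, edgeR). With each Sham library left out in turn the value was 0.61 to 0.81 and passed in 3 of 8 cases. It did not pass without WT-Sham replicate 2, 3 or 4 or HCN4F-Sham replicate 3 or 4 (adjusted p from 0.05 to 0.0946, edgeR). After TAC it was at 777 and 604 CPM in WT and 543 to 602 CPM in HCN4F. Of the 84, 0 passed between the TAC groups (edgeR), beside 0.111% of all genes. In the interaction 0 passed (edgeR), beside 0% of all genes. DESeq2 called 0 between the TAC groups and 1 in the interaction.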

How the data were processed

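RNA of the left ventricle was isolated with an RNeasy Fibrous Tissue Kit and sequenced after polyA selection. The authors deposited raw counts, whole numbers of reads per gene without normalization. The build is GRCm38 per the submitters' processing notes, and the aligner, counter, annotation and use of strand are not given in the sources used here. The study describes 16 samples, 4 per group. Here 14 libraries were analysed, and WT-TAC is left with 2. Per-sample values in 2 more columns, whose names hold TAC and WT, could not be matched to a sample and were not used.

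Genes were filtered with filterByExpr by group (15292 of 49315 kept) and scaled with TMM in edgeR 4.0.16 (R 4.3.3). All 4 groups entered 1 quasi-likelihood fit (robust), and p was adjusted by Benjamini-Hochberg across the 15292 genes. A gene passed at an adjusted p under 0.05. SE is the log2 fold change divided by the square root of its F statistic. Alternatives were DESeq2 1.42.0, edgeR on the compared groups alone, DESeq2 size factors, no filter, a log2 fold change above 1 as well, the replicate number as a block, and each library left out. Removal of the length trend, and all alternatives for the pathway counts, were added after the data were seen. mRNA length is that of the longest principal transcript in GENCODE M21, where 99.5% of gene IDs were found. Promoter windows are from RefSeq on GRCm38.p6. The steps were tested on simulated data.

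The genes of the set and the pathway and marker lists were chosen with earlier results of these data known. Values per library were given for Nfe2l2, Keap1, Nqo1, Hmox1 and Nnt, for each gene of the set that passed in any comparison, and for a few others, chosen after their values were seen. Of the pathway genes that passed, up to 10 per comparison were named, by size of change. The NRF2 partners and targets that passed after TAC in HCN4F were named as well. Counting limits cover counting error only. The marker lists were cardiomyocyte, atrial, fibroblast, endothelial, macrophage, smooth muscle and pericyte, adipocyte, erythroid and lymphocyte genes.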

Additional observations from a re-analysis of the deposited data

Results flagged for a closer look

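The level of Gstm1 in HCN4F-Sham replicate 1 was 132 CPM, apart from the other HCN4F-Sham libraries, which lay between 153 and 156 CPM. It was the only 1 of 42 groups of 4 libraries (14 genes in 3 groups) in which a library stood apart by Dixon's ratio, and chance gives about 1 in 20. Without this library Gstm1 differed between HCN4F-TAC and HCN4F-Sham by -0.62 on the log2 scale (adjusted p = 0.00027, edgeR).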

How the results depend on the processing

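The number of genes of the set passing after TAC in WT was 6. It was 14 (4 higher and 10 lower) with edgeR on the compared groups alone, 2 with the replicate block, 0 with the length trend removed, 0 with a log2 fold change above 1 as well, and 0 to 4 with a library left out. Here and for the set and pathway counts below, the library left out is one of the compared groups; without an HCN4F library, added after the data were seen, the WT count was 4 to 8. After TAC in HCN4F it was 7, or 0 with a log2 fold change above 1 as well and 6 to 13 with a library left out. HCN4F against WT after Sham gave 0, or 1 with DESeq2, 1 without the filter and 0 to 1 with a library left out. After TAC it gave 0, or 2 with DESeq2, 3 without the filter and 0 to 4 with a library left out. The interaction gave 0 under every alternative run, and 0 to 0 with a library left out. Pathway genes passing in WT were 8, or 14 with edgeR on the compared groups alone, 4 with the replicate block, 1 with the length trend removed, 1 with a log2 fold change above 1 as well and 0 to 4 with a library left out. In HCN4F they were 30, or 15 on the compared groups alone, 2 with a log2 fold change above 1 as well and 17 to 29 with a library left out. After Sham they were 1, or 4 with DESeq2, 4 without the filter, 0 with a log2 fold change above 1 as well and 0 to 6 with a library left out, after TAC 0 (0 to 2 with a library left out), and in the interaction 0, or 1 with DESeq2. The cause was not tested, other than that leaving out a library leaves fewer samples. Libraries that share a replicate number did not deviate together: 2 of 18 such pairs correlated above 0.1 (median 0.00, -0.12 to 0.16), and 8 of 54 other pairs did (median 0.01), so the block stands for a number only.

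In HCN4F the calls of Sod1, Gpx3, Gstm1, Gstp1 and Fth1 passed under each of the 14 alternatives run that did not ask for a log2 fold change above 1. In WT each of the 6 calls was lost under 3 (Gstm2) to 8 (Prdx5 and Ftl1) of 12 such alternatives, and no call changed sign. Among all genes, 447 were higher and 247 lower after TAC in WT, against a sum of 1196 with DESeq2, 2009 on the compared groups alone, 225 with the replicate block, 222 with the length trend removed and 11 to 1014 with any of the 14 libraries left out, as in the ranges that follow. After TAC in HCN4F 1101 were higher and 980 lower, against a sum of 1287 on the compared groups alone and 1329 to 2394 with a library left out. HCN4F against WT gave 72 after Sham, against 343 with DESeq2, 219 without the filter, 41 with the replicate block and 19 to 567 with a library left out. After TAC it gave 17, against 234, 146, 8 and 6 to 454, and 3 on the compared groups alone. The interaction gave 0, against 34, 17, 0 and 0 to 78. With DESeq2 size factors the median log2 fold change of all genes lay between -0.01 and 0.00 in every comparison. The 2 WT-TAC libraries limit each comparison that uses them.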
